A study of Mus musculus with 21 samples.

Results

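Spinal motor neurons are arranged in columns that project to different targets, and within the limb-projecting column in pools that each serve 1 muscle. The 10 genes described here, of 55400 in the deposited tables, are factors and enzymes that mark these columns and pools: *Foxp1*, *Aldh1a2*, *Lhx1* and *Mecom* for columns, *Pou3f1*, *Runx1*, *Etv1* and *Etv4* for pools, and *Foxp2* and *Foxp4* as close relatives of *Foxp1*. They were chosen by name from knowledge of motor neuron subtypes, with earlier results of these data known. All 10 were found in the tables by their gene identifiers. Wild-type C57BL/6 mouse embryonic stem cells, grown on mitomycin-treated mouse fibroblasts, were made into embryoid bodies, moved on day 2 into medium with 1 µM retinoic acid and 0.5 µM of the Sonic hedgehog agonist SAG, and directed towards the hypaxial motor column with 5 µM of the Notch inhibitor DAPT, given on day 4 and again on day 5. For the day 5 change the labels name the basal medium with DAPT and list neither retinoic acid nor SAG, and whether D4 cultures were taken before DAPT was not stated. Untreated cultures were collected on day 4 (D4), 8 hours later (D4H8), on day 5 (D5) and on day 6 (D6), with 3 biological replicates each. GSKJ4, an inhibitor of the H3K27 demethylases Kdm6a and Kdm6b, was given for the day before collection in 3 further groups of 3, from D3H8 for D4H8+GSKJ4, from D4 for D5+GSKJ4 and from D5 for D6+GSKJ4. Its dose in these cultures, and whether the untreated cultures received a vehicle, were not given in the sources used here. RNA was poly-A selected and sequenced in bulk from whole cultures.

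In the embryo, a code of Hox proteins sets where along the spinal cord each column forms. Foxp1, a forkhead factor, acts with the Hox proteins and is high in the lateral motor column, which innervates the limbs, while Mecom, a zinc-finger factor, marks medial column neurons that innervate the axial muscles. Aldh1a2, a retinaldehyde dehydrogenase, makes retinoic acid in lateral column neurons, and Lhx1, a LIM-homeodomain factor, marks the lateral division of that column and also several interneuron classes. The POU factor Pou3f1 marks phrenic and some limb pools, the Runt factor Runx1 marks cervical and hindbrain groups, and the ETS factors Etv1 and Etv4 mark pools in answer to signals from the periphery, Etv1 also being found in hypaxial column neurons. Foxp2 and Foxp4 are expressed in neural progenitors and act as these cells leave the neuroepithelium.

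The 21 libraries held between 14982115 and 34383842 counted reads, with a median of 16238435, and D4H8 replicate 1 was the deepest. D5+GSKJ4 replicate 2 stood apart, since 39381 genes had no read in it, whereas the others lacked reads for 29339 to 32805 genes. Summed FPKM of 8 motor neuron markers was 7.71 to 19.6 at D4, 57.9 to 62.7 at D4H8, 243 to 292 at D5 and 443 to 512 at D6, so the label of differentiated motor neuron was carried by few of these transcripts at D4. Markers of pluripotent cells (5 genes) still summed to 121 to 285 FPKM at D4 and 11.3 to 90.6 at D6, and none of the 5 was at 0. In bulk RNA, fewer cells of a type and less RNA per cell cannot be told apart. FPKM, fragments scaled to gene length and library depth, is used below for levels, and log2 fold changes come from edgeR's quasi-likelihood test on counts, with p adjusted by Benjamini-Hochberg over all genes tested and called at 0.05.

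*Aldh1a2* and *Runx1* went from a few reads at D4 to clear expression at D6, and their promoter windows are shown first because these are the members with the largest changes. *Foxp4*, which fell, is shown beside them. Sequences are RefSeq's, on GRCm38.p6, from 250 bases before to 50 bases after a transcript start, 5′ to 3′ on the gene's strand. *Runx1* has 2 starts in that table, a distal and a proximal one. Windows were found for 7 of the 10 members, and *Pou3f1*, *Foxp2* and *Etv4* had none there. Capitals mark matches on either strand to 7 motifs: the homeodomain core TAATTA, the E-box CANNTG, the retinoid receptor element AGGTCA, the Runt site TGNGGT, the forkhead core TGTTTAC, the ETS core CCGGAA and the TATA box core TATAAA.
Aldh1a2 (chr9:71215539-71215838, plus strand): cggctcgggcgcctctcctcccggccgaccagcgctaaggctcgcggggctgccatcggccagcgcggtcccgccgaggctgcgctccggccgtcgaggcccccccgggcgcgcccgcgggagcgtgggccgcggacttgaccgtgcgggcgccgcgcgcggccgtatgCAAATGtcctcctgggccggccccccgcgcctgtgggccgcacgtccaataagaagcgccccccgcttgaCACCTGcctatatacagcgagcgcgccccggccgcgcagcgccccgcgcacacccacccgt
Runx1 distal (chr16:92826025-92826324, minus strand): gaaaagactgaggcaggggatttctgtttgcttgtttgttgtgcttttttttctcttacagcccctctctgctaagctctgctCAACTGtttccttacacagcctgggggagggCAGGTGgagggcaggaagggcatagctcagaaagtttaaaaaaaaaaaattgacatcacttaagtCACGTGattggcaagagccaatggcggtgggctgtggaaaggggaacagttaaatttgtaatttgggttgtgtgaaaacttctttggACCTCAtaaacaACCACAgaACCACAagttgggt
Runx1 proximal (chr16:92697280-92697579, minus strand): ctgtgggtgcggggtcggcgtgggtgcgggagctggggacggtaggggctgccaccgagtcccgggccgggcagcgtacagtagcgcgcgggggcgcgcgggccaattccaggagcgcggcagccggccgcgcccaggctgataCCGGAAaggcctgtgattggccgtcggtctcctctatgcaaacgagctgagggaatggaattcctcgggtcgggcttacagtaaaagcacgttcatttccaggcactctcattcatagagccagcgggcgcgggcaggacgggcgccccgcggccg
Foxp4 (chr17:47924583-47924882, minus strand): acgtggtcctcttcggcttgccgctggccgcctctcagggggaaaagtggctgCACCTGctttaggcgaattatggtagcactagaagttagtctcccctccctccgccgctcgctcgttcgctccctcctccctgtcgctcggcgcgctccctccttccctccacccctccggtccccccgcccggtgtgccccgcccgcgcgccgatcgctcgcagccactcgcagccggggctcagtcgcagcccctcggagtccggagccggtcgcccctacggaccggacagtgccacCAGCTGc

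The *Aldh1a2* window held 50 CpG dinucleotides, more than 99.1% of the 32851 windows in the table had, and 2 E-boxes. The distal *Runx1* window held only 2 CpG dinucleotides, with 3 E-boxes and 3 Runt sites, whereas the proximal window held 35 CpG dinucleotides and 1 ETS core. *Foxp4* had 33 CpG dinucleotides and 2 E-boxes. Over all windows the median was 7 CpG dinucleotides, and an E-box was present in 72.3%, the loose Runt pattern in 45.8% and an ETS core in 14.9%. The forkhead core (3.65% of all windows) was in none of the 12 member windows, the homeodomain core (5.29%) was in 1 *Foxp1* window, the retinoid receptor site (16.3%) was in 1 *Mecom* window, and the TATA box core (13.6%) was in 1 *Etv1* window. A match describes letters in this window and not a bound site.

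**Figure D1:**
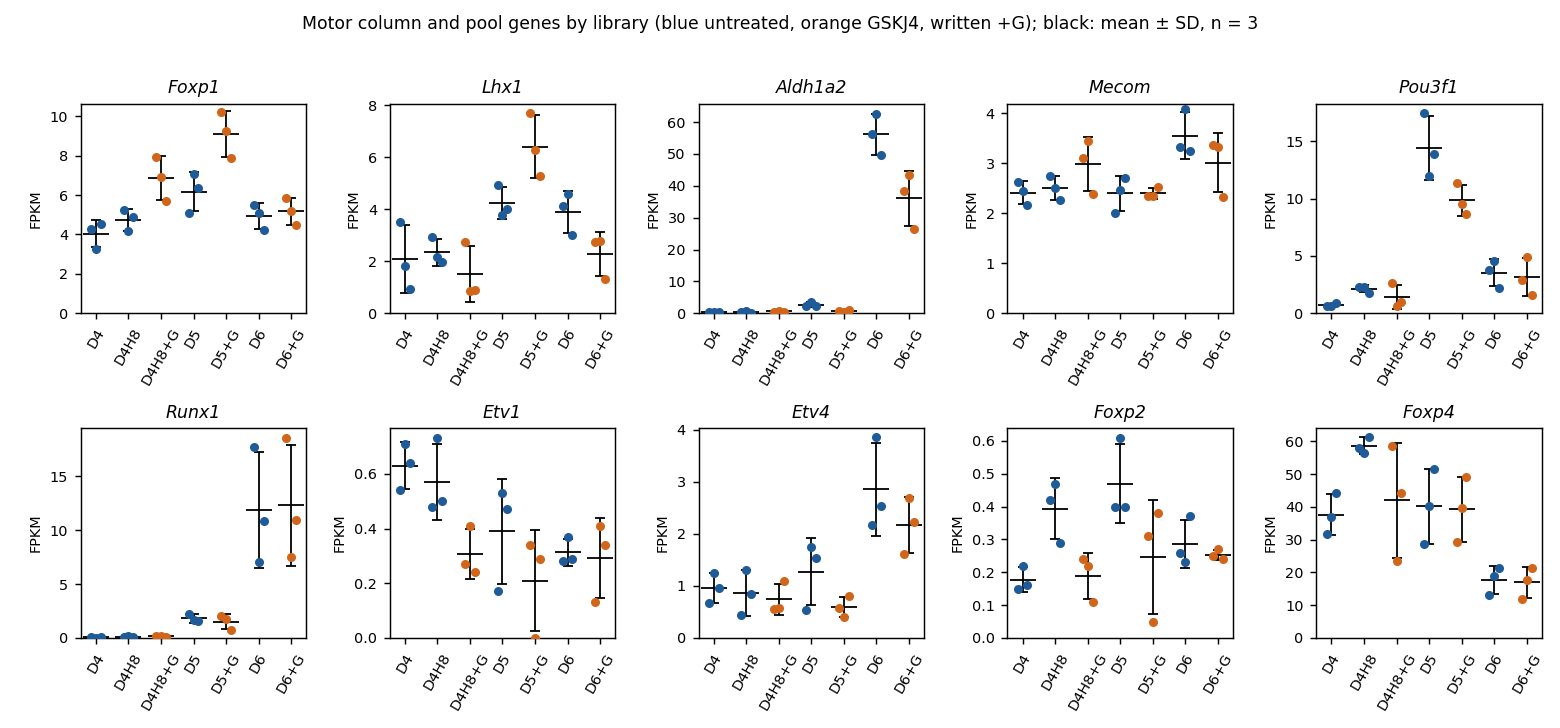
FPKM (vertical axis, from 0, own scale per gene) of the 10 genes in each of the 21 libraries, by group along the horizontal axis, with GSKJ4 groups in orange and black marks for the mean ± SD of 3 replicates. *Aldh1a2* and *Runx1* lie near 0 until D4H8 and are highest at D6, *Pou3f1* peaks at D5 and *Foxp4* is lowest at D6.

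Among the column genes, *Aldh1a2* (ENSMUSG00000013584, chr9:71215789-71296243 on GRCm38) rose most steeply. Its level was 0.31, 0.41 and 0.24 FPKM in D4 replicates 1 to 3 and 0.42, 0.65 and 0.18 FPKM at D4H8. It was 2.26, 3.63 and 2.16 FPKM at D5 and 56.2, 62.7 and 49.6 FPKM at D6. D4 and D4H8 overlapped, and D5 and D6 each lay wholly above every earlier library. The mean at D6, 56.1 ± 6.52 FPKM (SD, n = 3), was 20.9 times that at D5 and 175 times that at D4, where the gene rested on 9 to 16 reads per library. By edgeR the log2 fold change was 0.33 (SE 0.40, adjusted p = 0.718) from D4 to D4H8, 2.66 (SE 0.31, adjusted p = 2.8e-05) over the next step, and 4.50 (SE 0.27, adjusted p = 2.7e-07) over the last. At D6 *Aldh1a2* was the most abundant of the 10 genes per length, ahead of *Foxp4* at 17.7 FPKM and *Runx1* at 11.9 FPKM.

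*Foxp1* and *Lhx1*, the other lateral column genes, were not called by edgeR over the 12 untreated libraries in any stage comparison. *Foxp1* (ENSMUSG00000030067, chr6:98925338-99522721) was at 4.30, 3.26 and 4.55 FPKM in the D4 replicates and at 5.49, 5.10 and 4.23 FPKM at D6, with overlapping ranges. Its largest step was from D4H8 (4.15 to 5.25 FPKM) to D5 (5.10 to 7.06 FPKM), with a log2 fold change of 0.38 (SE 0.17, adjusted p = 0.125). The net change from D4 to D6 was 0.36 (SE 0.17, adjusted p = 0.0871), and it was called without D6 replicate 3 (adjusted p = 0.0384). *Lhx1* (ENSMUSG00000018698, chr11:84518284-84525535) spread widely at D4, with 3.50, 1.80 and 0.92 FPKM in replicates 1 to 3. At D4H8 it was 2.93, 2.15 and 1.95 FPKM, at D5 4.93, 3.79 and 3.99 FPKM, and at D6 4.12, 4.58 and 3.01 FPKM. All 3 D5 libraries lay above all 3 at D4H8. That step, 0.85 (SE 0.39, adjusted p = 0.123), passed with a replicate block (0.89, SE 0.28, adjusted p = 0.0281), and without D4 replicate 1 in the shared fit (adjusted p = 0.0425). From D4 to D6 *Lhx1* differed by 0.92 (SE 0.39, adjusted p = 0.0513), and without D4 replicate 1, the highest of the D4 libraries, by 1.60 (adjusted p = 0.00106). It was called there by DESeq2 (adjusted p = 0.0346), with RLE scaling in edgeR (0.0487), without D6 replicate 3 (0.0386) and with the replicate block (1.06, SE 0.28, adjusted p = 0.00492). Same-numbered D4 and D6 libraries, however, did not deviate together in all 3 cases (correlations of 0.0149, 0.018 and 0.105 across genes). *Lhx1* was not called from D4 to D6 with upper-quartile scaling (0.0838) or in 1 fit over all 21 libraries (0.102). Only 2 of the 12 refits that left out 1 library called it, with adjusted p up to 0.181.

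*Mecom* (ENSMUSG00000027684, chr3:29951296-30548008) rose at the last step. It lay between 2.01 and 2.74 FPKM in all 9 untreated libraries from D4 to D5 and was 3.32, 4.09 and 3.25 FPKM at D6, above every one of them. The log2 fold change was 0.68 (SE 0.16, adjusted p = 0.00489) from D5 to D6 and 0.62 (SE 0.16, adjusted p = 0.00397) from D4 to D6. Both were called in all 12 refits that left out 1 library.

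Among the pool genes, *Runx1* (ENSMUSG00000022952, chr16:92601466-92826149) had the largest change of the set from D4 to D6. It was at 0.05, 0.04 and 0.08 FPKM at D4 (8 to 16 reads), 0.12, 0.14 and 0.09 FPKM at D4H8, and 2.25, 1.63 and 1.54 FPKM at D5. At D6 the replicates were 17.7, 7.07 and 10.8 FPKM. No stage overlapped its neighbour although the D6 libraries spread widely, with replicate 1 highest and replicate 2 lowest. The log2 fold change was 0.95 (SE 0.48, adjusted p = 0.348) from D4 to D4H8, 3.95 (SE 0.36, adjusted p = 2.7e-06) over the next step and 2.84 (SE 0.30, adjusted p = 1.4e-05) from D5 to D6. An antisense gene, Gm26626, shares 106 exonic bases with *Runx1* and had at most 15 counts in any library.

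*Pou3f1* (ENSMUSG00000090125, chr4:124656807-124660655) rose early and was transient. It was 0.63, 0.67 and 0.86 FPKM at D4, 2.32, 2.33 and 1.8 FPKM at D4H8, and 17.4, 11.97 and 13.9 FPKM at D5, and it was back to 3.76, 4.6 and 2.24 FPKM at D6. D6 lay below all of D5 but above all of D4. The log2 fold changes were 1.54 (SE 0.27, adjusted p = 0.00391), 2.74 (SE 0.25, adjusted p = 3.1e-06) and −1.92 (SE 0.25, adjusted p = 6.3e-05) over the 3 steps. The first was not called in 1 fit over all 21 libraries (adjusted p = 0.0621). An antisense gene, Gm2164, shares 330 of its exonic bases (8.57%) and had at most 32 counts, and the counting strand was not given in the sources used here.

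The ETS genes were low and went opposite ways. *Etv4* (ENSMUSG00000017724, chr11:101769742-101785371) was 0.67, 1.24 and 0.95 FPKM at D4, 0.54, 1.74 and 1.53 FPKM at D5 and 2.17, 3.85 and 2.53 FPKM at D6. All D6 libraries lay above all D5 libraries, of which replicate 1 was the low one. *Etv4* rose by 1.28 (SE 0.42, adjusted p = 0.0319) on the log2 scale from D5 to D6 and by 1.65 (SE 0.43, adjusted p = 0.00398) from D4 to D6. The former was lost without D5 replicate 1 (adjusted p = 0.0905), D5 replicate 3 (0.0544) or D6 replicate 2 (0.122). *Etv1* (ENSMUSG00000004151, chr12:38779380-38870484) was 0.54, 0.71 and 0.64 FPKM at D4 and 0.28, 0.37 and 0.29 FPKM at D6, without overlap. It fell from D4 to D6 by 0.94 on the log2 scale (SE 0.33, adjusted p = 0.0238), a call lost without D4 replicate 2 (adjusted p = 0.0675), D6 replicate 1 (0.0636) or D6 replicate 3 (0.0698), and in a fit over all 21 libraries (0.238). No single step of *Etv1* was called.

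Of the *Foxp1* relatives, *Foxp4* (ENSMUSG00000023991, chr17:47867133-47924645) was the most abundant of the 10 genes at D4, D4H8 and D5. It was 31.9, 36.9 and 44.2 FPKM at D4, 58.1, 56.6 and 61.5 FPKM at D4H8, 28.6, 40.3 and 51.5 FPKM at D5 and 13.03, 18.8 and 21.3 FPKM at D6. D4H8 lay above both neighbours and D6 below all earlier libraries. The first step, 0.60 (SE 0.18, adjusted p = 0.0992), passed with a replicate block (0.61, SE 0.14, adjusted p = 0.0228), and also without D5 replicate 1 (adjusted p = 0.0403) or D5 replicate 3 (0.0489). *Foxp4* then fell by 0.55 (SE 0.18, adjusted p = 0.0393) to D5 and by 1.07 (SE 0.19, adjusted p = 0.000694) to D6, on the log2 scale. The fall to D5 was 0.37 without D5 replicate 1 (adjusted p = 0.150), and leaving out D4 replicate 2, any D4H8 replicate, D5 replicate 2 or D6 replicate 2 gave adjusted p of 0.0535 to 0.0971. A single fit over all 21 libraries gave 0.131. *Foxp2* (ENSMUSG00000029563, chr6:14901349-15441977) stayed under 1 FPKM, at 0.15, 0.22 and 0.16 FPKM at D4 and 0.42, 0.47 and 0.29 FPKM at D4H8. Its increase of 1.12 (SE 0.28, adjusted p = 0.0384) was lost without any 1 of the 3 D4 libraries or D4H8 replicate 1 or 2 (adjusted p 0.0601 to 0.170), with upper-quartile scaling (0.0505) and in the fit over all 21 libraries (0.387). From D4 to D6 it rose by 0.78 (SE 0.29, adjusted p = 0.0281), which was lost without D4 replicate 1 (adjusted p = 0.0957), D4 replicate 3 (0.109) or D6 replicate 3 (0.119), with upper-quartile scaling (0.0723) and in the fit over all 21 libraries (0.210).

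**Figure D2:**
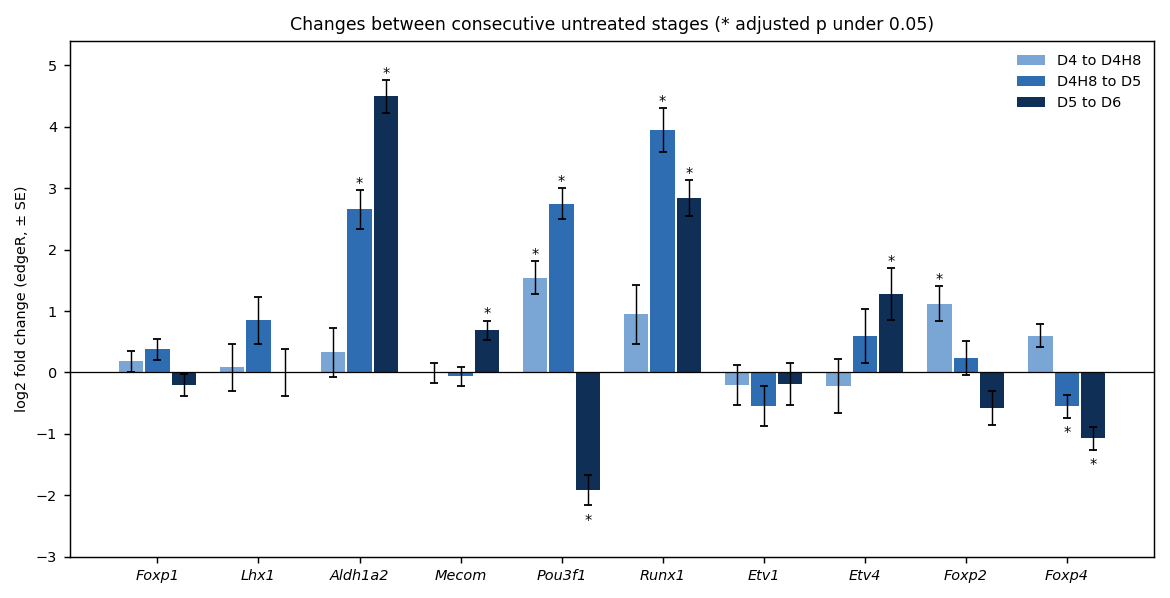
Log2 fold change (vertical axis, edgeR, bars with SE, 3 libraries per stage) of the 10 genes over the 3 consecutive steps between untreated stages, with a star where the adjusted p over all genes was under 0.05. The tallest bars are *Aldh1a2* from D5 to D6 (4.50) and *Runx1* from D4H8 to D5 (3.95), and *Pou3f1* changes sign.

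Counted together, 2 of the 10 genes rose from D4 to D4H8 (*Foxp2* and *Pou3f1*), and 4.06% of all 17519 genes tested rose, 0.32% fell and 4.38% were called in either direction. From D4H8 to D5, 3 rose (*Aldh1a2*, *Pou3f1* and *Runx1*; background 17.2%) and *Foxp4* fell (10.5%, and 27.7% in either direction). From D5 to D6, 4 rose (*Aldh1a2*, *Runx1*, *Mecom* and *Etv4*; 19.2%) and 2 fell (*Foxp4* and *Pou3f1*; 15.1%, and 34.3% in either direction). Over the whole course from D4 to D6, 6 rose (32.9%) and 2 fell (31%), so that 8 of 10 were called where 63.9% of all genes were. DESeq2 called 3, 4, 6 and 9 members over these 4 comparisons (7.02%, 29.2%, 31.2% and 42.5% of the 16218, 18197, 20177 and 26775 genes it tested). That set changed with the comparison and was not edgeR's, so the shares of the 2 tools are not on like sets. From D4 to D6 DESeq2 called 11384 genes, beside 11188 by edgeR. EdgeR with the replicate block called 3, 5, 6 and 9 members (5.39%, 30.9%, 38% and 66.6%), although same-numbered D4 and D6 libraries did not deviate together in all 3 cases. The libraries of the earlier and later stage did not overlap for 4, 5, 7 and 8 members, beside 24.5%, 43.1%, 48.5% and 69.3% of genes. Of all genes tested, 0.759% had a larger absolute log2 fold change from D4 to D6 than *Aldh1a2*, and 0.639% a larger one than *Runx1*. The median log2 fold change of the members was 0.85, beside −0.04 over all genes tested.

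The other 27 column and pool genes were listed from general knowledge, with earlier results of these data known. They overlap with the marker lists, since *Lhx3*, *Isl1* and others are in both. Of all genes tested by edgeR, 32.9% rose and 31% fell from D4 to D6, and 19.2% rose and 15.1% fell from D5 to D6. DESeq2 called 42.5% of 26775 and 31.2% of 20177 genes in either direction, which are not the genes that edgeR tested. For the stage counts at an unadjusted p, no share over all genes is given. From D4 to D6, 22 of 27 rose and 0 fell by edgeR (22 and 0 at an unadjusted p under 0.05, 21 and 0 by DESeq2), with a median log2 fold change of 1.9 beside −0.04 over all genes. *Isl2* (7.35), *Chodl* (7.04) and *Lhx4* (6.95) had the largest values, the first and last being motor neuron homeodomain factors and *Chodl* a lectin-like gene of fast motor neurons. From D5 to D6, 11 rose and 3 fell, and *Lhx3*, the medial column determinant, fell by 2.74 (SE 0.36) on the log2 scale while *Nkx6-2* and *Chodl* rose by 2.81 and 2.68. Of 11 tested genes of retinoid metabolism and response, 0 rose and 5 fell from D5 to D6 by edgeR, the step at which *Aldh1a2* rose (0 and 7 at an unadjusted p under 0.05, 0 and 5 by DESeq2). The largest falls were in the retinoic acid hydroxylases *Cyp26b1* (−3.94, SE 0.43), *Cyp26a1* (−3.90, SE 0.27) and *Cyp26c1* (−3.36, SE 0.32). For the day 5 change the labels list neither retinoic acid nor SAG, so stage and medium cannot be told apart from D5 to D6. Of 10 tested FGF and MAPK response genes, 4 rose and 0 fell by edgeR at that step (4 and 1 at an unadjusted p under 0.05, 4 and 0 by DESeq2), led by *Spry4* (1.84, SE 0.40), a feedback inhibitor. Of 10 tested Hox genes of column position, 2 fell at that step, *Hoxc8* (−4.25) and *Hoxc9* (−3.05), and 2 rose, among them *Hoxc4* (0.83).

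Markers of other cells in which these genes are also used were read in the same libraries. *Runx1* and *Mecom* serve in blood, and 8 of 10 blood and endothelial markers stayed under 1 FPKM in all 21 libraries, with *Ptprc* at most 0.01, *Spi1* at most 0.10 and *Gata1* at most 0.27 FPKM. The other 2 were endothelial genes, *Pecam1* at up to 4.26 FPKM and *Cdh5*, which went from 0.04 to 0.13 FPKM at D4 to 0.79 to 2.12 FPKM at D6. *Cdh5* (log2 fold change 4.00, SE 0.76) and *Kdr* (2.37, SE 0.42) were the 2 of 4 tested blood and endothelial markers that rose from D4 to D6 by edgeR, as *Runx1* did. Of all genes tested, 32.9% rose. The 10 blood and endothelial markers summed to 1.58 to 3.38 FPKM at D4 and 2.1 to 4.23 at D6. *Aldh1a2* serves in mesoderm, and 6 mesoderm markers summed to 14.2 to 19.0 FPKM at D5 and to 3.16 to 5.55 at D6, where *Aldh1a2* was highest. *Lhx1* serves in interneurons, and 9 of 16 interneuron markers stayed under 1 FPKM throughout, among them *Lhx5* (at most 0.40), *Pax2* (at most 0.79) and *Evx1* (at most 0.33), with a sum of 4.73 to 5.95 FPKM at D4 and 9.07 to 16.2 at D6. Fibroblast markers (8 genes) summed to 6.77 to 18.7 FPKM at D4 and 14.7 to 33.98 at D6, and 6 progenitor markers to 148 to 216 and 149 to 218. Within the progenitor sum, 4 of the 6 fell and 1 rose from D4 to D6 by edgeR, where 31% and 32.9% of all genes did. Mean *Olig2* went from 47.45 to 1.24 FPKM and mean *Sox2* from 66.1 to 17.9 FPKM, while mean *Nkx6-1* went from 27.2 to 143 FPKM. The part of these cells in the changes was not tested.

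**Figure D3:**
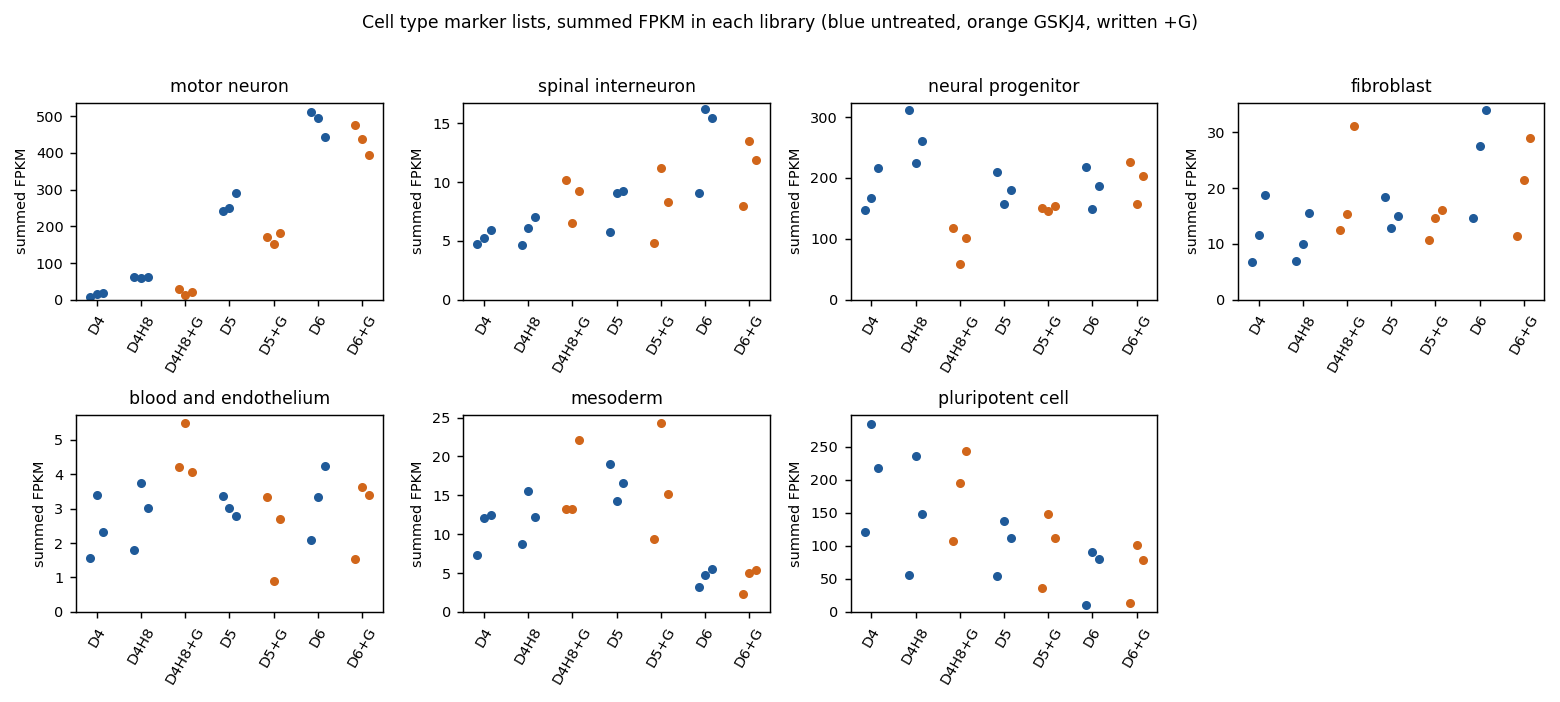
Summed FPKM (vertical axis, from 0, own scale per list) of 7 marker lists in each library, by group, with GSKJ4 groups in orange. Motor neuron markers climb to 443 to 512 at D6, blood and endothelial markers stay at or under 5.49, and pluripotent markers are lowest in replicate 1 at D6.

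GSKJ4 was compared with untreated cells at each stage, the comparison that asks how blocking H3K27 demethylases over the preceding day bears on these genes. By edgeR without a block, 0 of the 10 genes were called at D4H8, D5 or D6, where 3.96% of 16269, 0.00613% of 16309 and 0% of 16301 genes were called. At an unadjusted p under 0.05 there were 3, 4 and 2 members, where 14.1%, 2.31% and 0.54% of genes were higher and 11%, 2.39% and 0.822% lower. DESeq2 called 0, 1 and 0 members (12.8%, 0.412% and 0.00326% of genes), and the replicate block 1, 0 and 2 (14%, 0.0245% and 1.58%). Treated and untreated libraries did not overlap for 3, 5 and 2 of the 10 genes, beside 32.9%, 11.6% and 5.3% of all genes tested.

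*Aldh1a2* was the member with the largest GSKJ4 difference. At D5 it was 2.26, 3.63 and 2.16 FPKM untreated and 0.75, 0.37 and 0.99 FPKM with GSKJ4. Every treated library lay below every untreated one, and the treated mean was 26.2% of the untreated mean. The log2 difference was −1.97 (SE 0.52, adjusted p = 0.721 by edgeR), called by DESeq2 (−1.98, adjusted p = 0.0353) and in 1 fit over all 21 libraries (adjusted p = 0.0384). Without D5+GSKJ4 replicate 2, the library with many genes at 0, it was −1.66 (adjusted p = 0.630). At D6 *Aldh1a2* was 56.2, 62.7 and 49.6 FPKM untreated and 38.4, 43.4 and 26.3 FPKM with GSKJ4, again without overlap. The treated mean was 64.2% of the untreated mean. Same-numbered D6 libraries deviated together (correlations of 0.833, 0.525 and 0.671 across genes), so the replicate number was taken as a pair there. The unblocked difference was −0.65 (SE 0.20, adjusted p = 1.00), and with the replicate block it was −0.67 (SE 0.06, adjusted p = 4.3e-06), with ratios of treated to untreated CPM of 0.684, 0.692 and 0.531 in the 3 pairs.

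At D4H8, where *Aldh1a2* rested on 6 to 33 reads per library, it was 0.42, 0.65 and 0.18 FPKM untreated and 0.50, 0.80 and 0.53 FPKM treated, and the ranges overlapped. The GSKJ4 effect at D5 minus that at D4H8 was −2.47 (SE 0.56, adjusted p = 0.0926), where 0.249% of 18103 genes were called. It passed by DESeq2 (adjusted p = 0.00145, 1.35% of genes called), with no filter on counts (2.3e-06), with a replicate block (0.0281, 1.02% called) and without D4H8+GSKJ4 replicate 1 (0.0470). For the fit with no filter, no share over all genes is given. Numbers at D4H8 and D5 did not pair with GSKJ4 in all 3 cases. Only 1 of the 18 edgeR refits that left out 1 library called the difference, with adjusted p up to 0.285, and so not the refit without D5+GSKJ4 replicate 2. The effect at D6 minus that at D4H8 was −1.13 (SE 0.52, adjusted p = 0.346, 0.735% of genes called by edgeR, 3.75% by DESeq2 and 2.71% with the block). That at D6 minus that at D5 was 1.34 (SE 0.47, adjusted p = 1.00, 0% called by edgeR and 0.00283% by DESeq2), which did not pass.

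For the other 9 members the effect at D5 minus that at D4H8 ran from −0.88 (*Etv4*) to 1.26 (*Lhx1*), that at D6 minus that at D4H8 from −0.46 (*Mecom*) to 0.86 (*Foxp2*), and that at D6 minus that at D5 from −1.32 (*Lhx1*) to 0.76 (*Etv1*), with 0 called by edgeR or DESeq2.

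*Lhx1* lay on opposite sides of its controls at D5 and D6. At D5 it was 4.93, 3.79 and 3.99 FPKM untreated and 7.69, 6.27 and 5.26 FPKM with GSKJ4, higher in all 3 treated libraries. At D6 it was 4.12, 4.58 and 3.01 FPKM untreated and 2.74, 2.78 and 1.31 FPKM treated, lower in all 3. The log2 differences were 0.56 (SE 0.23, adjusted p = 0.976) and −0.78 (SE 0.33, adjusted p = 1.00). With the replicate block the D6 difference was −0.81 (SE 0.13, adjusted p = 0.00159), and 1.58% of genes were called in that fit. The difference between the effects, −1.32 (SE 0.55, adjusted p = 1.00), did not pass. At D4H8, *Lhx1* was 2.93, 2.15 and 1.95 FPKM untreated and 2.73, 0.85 and 0.89 FPKM treated, with overlap through treated replicate 1.

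**Figure D4:**
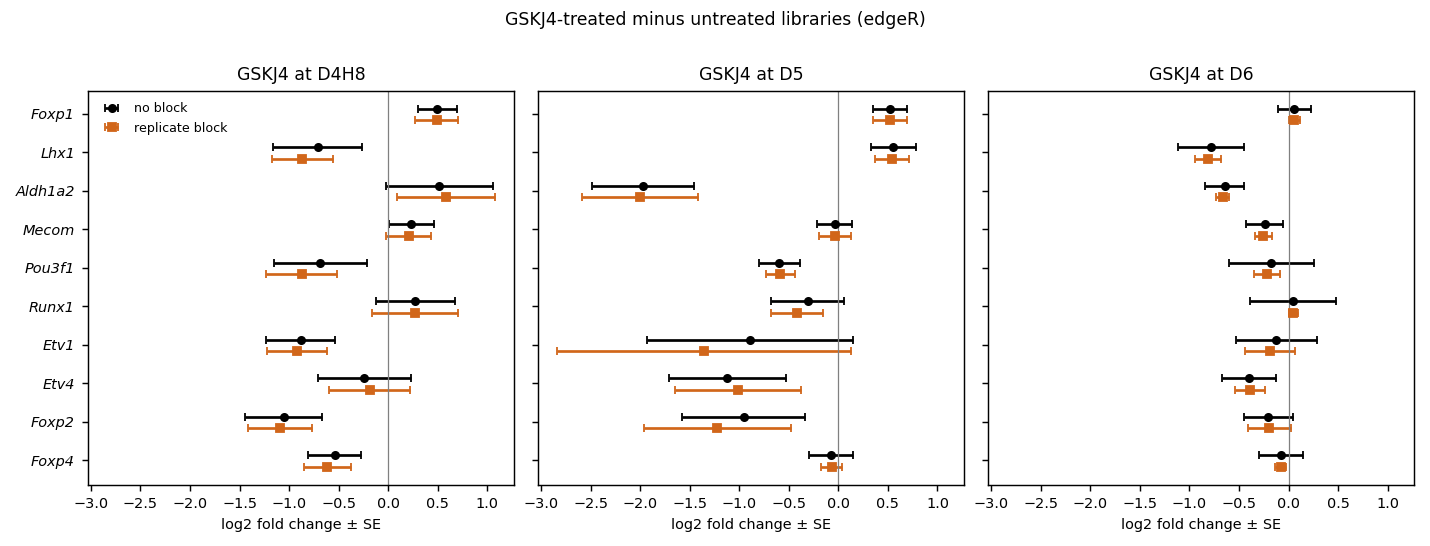
Log2 difference of GSKJ4-treated minus untreated libraries (horizontal axis, ± SE, 3 against 3) for the 10 genes at each stage, without a block (black) and with the replicate block (orange). *Aldh1a2* is at −1.97 at D5 and −0.65 at D6, and the block shortens the D6 intervals most.

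*Foxp1* was higher with GSKJ4 in every library at D4H8 and D5. It was 5.25, 4.15 and 4.87 FPKM untreated and 7.95, 6.91 and 5.72 FPKM treated at D4H8, and 5.10, 7.06 and 6.38 against 10.2, 9.23 and 7.89 FPKM at D5. The log2 differences of 0.50 (SE 0.20, adjusted p = 0.161) and 0.52 (SE 0.17, adjusted p = 0.976) did not pass. At D6 the difference was 0.06 (SE 0.16), which did not pass either. Its relatives had negative differences at D4H8. *Foxp2* was 0.42, 0.47 and 0.29 FPKM untreated and 0.24, 0.22 and 0.11 FPKM treated (−1.05, SE 0.39, adjusted p = 0.134), and passed with a block of the D4H8 numbers (adjusted p = 0.0323), although those did not pair in all 3 cases. *Foxp4* was 23.4 FPKM in D4H8+GSKJ4 replicate 2 against 58.5 and 44.2 in the other treated libraries and 56.6 to 61.5 FPKM untreated (−0.54, SE 0.27, adjusted p = 0.237).

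The pool genes showed no called difference. *Pou3f1* at D5 was 17.4, 11.97 and 13.9 FPKM untreated and 11.3, 9.56 and 8.64 FPKM treated, without overlap (−0.60, SE 0.21, adjusted p = 0.976). *Etv1* at D4H8 was 0.48, 0.73 and 0.50 FPKM untreated and 0.27, 0.41 and 0.24 FPKM treated, also without overlap (−0.88, SE 0.35, adjusted p = 0.154), and was called without D4H8+GSKJ4 replicate 2 (−1.23, adjusted p = 0.0446). At D5 *Etv1* had 0 counts in D5+GSKJ4 replicate 2, which allows up to 0.191 CPM there, against 0.34 and 0.29 FPKM in the other treated libraries. *Etv4* differed by −1.12 (SE 0.59, adjusted p = 0.976) at D5, and *Mecom* by −0.24 (SE 0.18, adjusted p = 1.00) at D6. The log2 differences not given elsewhere, of which 0 passed by edgeR, were at D4H8 0.52 for *Aldh1a2*, −0.71 for *Lhx1*, 0.23 for *Mecom*, −0.69 for *Pou3f1*, −0.24 for *Etv4* and 0.27 for *Runx1*. At D5 they were −0.95 for *Foxp2*, whose libraries did not overlap, −0.08 for *Foxp4*, −0.04 for *Mecom*, −0.89 for *Etv1* and −0.31 for *Runx1*. At D6 they were −0.20 for *Foxp2*, −0.07 for *Foxp4*, −0.17 for *Pou3f1*, −0.12 for *Etv1* and −0.40 for *Etv4*. *Foxp2* at D5 was 0.40, 0.61 and 0.40 FPKM untreated and 0.31, 0.05 and 0.38 FPKM treated. The lowest was D5+GSKJ4 replicate 2, the library with many genes at 0. With 1 library left out, the D5 difference of *Foxp2* was as small as −0.46.

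*Runx1* at D6 was nearly the same with and without GSKJ4 once numbers were matched. Untreated replicates 1 to 3 were at 17.7, 7.07 and 10.8 FPKM and treated ones at 18.5, 7.53 and 10.9 FPKM, with CPM ratios of 1.05, 1.07 and 1.01. The replicate-blocked difference was 0.05 (SE 0.05), well inside the spread among the 3 untreated libraries. The same libraries differed in pluripotent markers, whose sum was 11.3, 90.6 and 81.0 FPKM untreated and 13.7, 101 and 78.7 FPKM treated, lowest where *Runx1* was highest. *Foxp4* at D6 also kept its order by number, with 13.03, 18.8 and 21.3 FPKM untreated and 11.9, 17.6 and 21.4 FPKM treated. Any part of these markers in the *Runx1* and *Foxp4* levels was not tested.

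**Figure D5:**
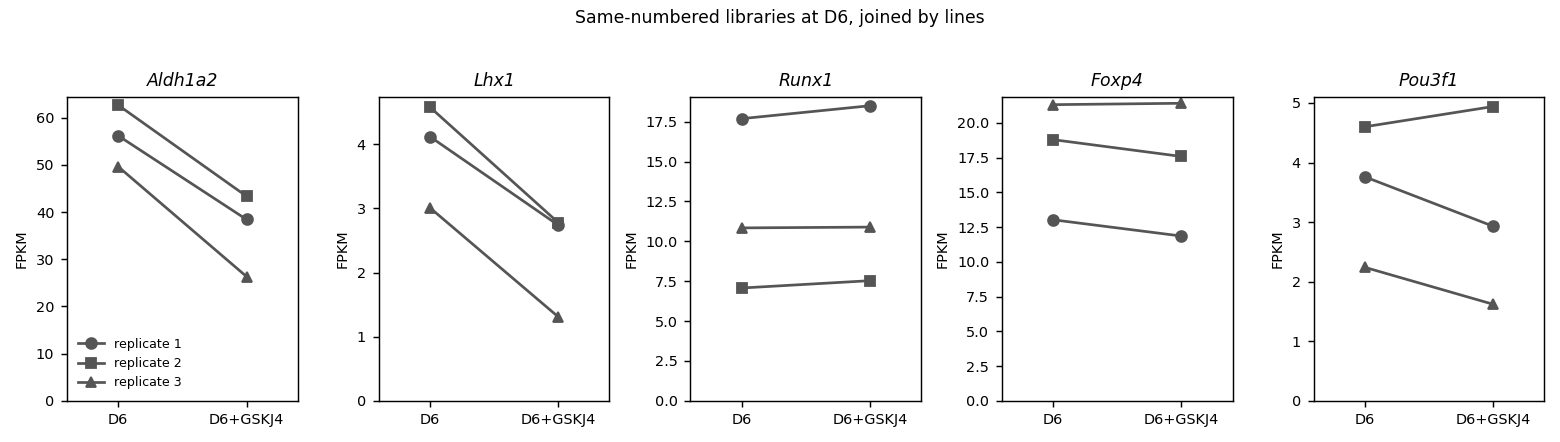
FPKM (vertical axis, from 0) of 5 of the genes in untreated and GSKJ4-treated D6 libraries, with same-numbered libraries joined. *Aldh1a2* and *Lhx1* drop in all 3 pairs, while *Runx1* lines are nearly flat at 3 separate levels.

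Motor neuron markers summed to 12.6 to 28.9 FPKM with GSKJ4 at D4H8 against 57.9 to 62.7 untreated, to 151 to 182 against 243 to 292 at D5, and to 395 to 476 against 443 to 512 at D6. Progenitor markers summed to 58.2 to 117 FPKM at D4H8 with GSKJ4 against 224 to 311 untreated. Interneuron markers at D6 were 7.99 to 13.5 FPKM treated and 9.07 to 16.2 untreated. Their part in the member differences was not tested. Of 24 tested other column and pool genes, 1 rose and 9 fell with GSKJ4 at D4H8 by edgeR, where 3.96% of all genes were called. The falls were led by *Prdm8* (−3.48), *Epha3* (−3.16) and *Lhx3* (−3.10). The median was −0.92 beside 0.02 over all genes, while the 10 members had a median of −0.39. Of the FGF and MAPK genes only *Dusp4* (−0.93) was called at D4H8, and 0 retinoid and Hox genes were called there by edgeR (5 and 3 at an unadjusted p under 0.05, 4 and 1 by DESeq2). Over all genes, 14.1% were higher and 11% lower at that unadjusted p, and DESeq2 called 12.8%. At D5, 0 genes of the 4 lists were called by edgeR. Of 24 other column and pool genes, 10 were lower at an unadjusted p under 0.05 and 5 by DESeq2. Over all genes, 2.39% were lower at that unadjusted p, and DESeq2 called 0.412% in either direction. At D6, 0 genes of the 4 lists were called by edgeR or DESeq2. Of 26 other column and pool genes, 5 were lower at an unadjusted p under 0.05, beside 0.822% of all genes.

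Finally, the genes whose pattern over the 21 libraries was most like each member's were found by Pearson correlation of log2(FPKM + 1) among 13170 genes, as a description in which all points share libraries and stage. *Aldh1a2* was followed most closely by *Pcdh9*, *Nwd2* and *Fam19a2* (r of 0.992, 0.992 and 0.990), and *Runx1* by *Dixdc1*, *Sdk1* and *Nkain3* (0.993, 0.991 and 0.990). *Pou3f1* was followed by *Suox*, *Tspan15* and *Nckap5* (0.974, 0.950 and 0.944) and *Foxp4* by *Cdkn2c*, *Fgfrl1* and *Cib1* (0.961, 0.959 and 0.958). *Etv4* had *Neurog3*, *Syndig1* and *Foxl1* (0.922, 0.914 and 0.885), *Foxp1* had *Slc38a6*, *Uvssa* and *Mef2a* (0.868, 0.847 and 0.844), *Lhx1* had *Cfl2*, its neighbour *Lhx1os* and *Hoxa5* (0.876, 0.847 and 0.828), and *Mecom* had *Flrt2*, *Fut8* and *Smad9* (0.846, 0.834 and 0.818). Of these 24 genes, 14 stayed with a pseudocount of 0.1 and 5 with the 12 untreated libraries alone.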

How the data were processed

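Bulk poly-A RNA-seq of 21 libraries (7 groups, 3 biological replicates each) was used. After trimming, the authors used HISAT2 for alignment (mm10) and HTSeq for counting, and deposited raw counts and FPKM for each library. DESeq2 and SAMtools are also named in the submitters' processing notes. Whether counting used strand was not given in the sources used here. Gene identifiers were matched to symbols and GRCm38 positions in GENCODE M21, and 55140 of 55400 had a symbol.

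Counts were tested with edgeR 4.0.16 in R 4.3.3 (TMM, filterByExpr with a minimum count of 10, quasi-likelihood F-test, Benjamini-Hochberg over all genes tested, threshold 0.05). Stage steps were fitted on the 12 untreated libraries, each GSKJ4 effect on its own 6, and differences between effects on 18. DESeq2 1.42.0, other scalings, other filters, 1 fit over all 21 libraries, a replicate block and leaving out each library were alternatives. DESeq2 was run without that count filter. Its shares are over the genes it gave an adjusted p, 15456 to 35329 by comparison, and so not over the same set as edgeR's. The SE of a log2 fold change was its absolute value divided by the square root of the F statistic. Deposited FPKM were used for levels only. The tests were tested on simulated data.

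The rule for named genes took all 10 members, the 3 genes most like each of the 8 members that reached a mean of 1 FPKM in any group, and up to 3 called genes with the largest change from each list. Members with no call may be given by a range, and *Cdh5*, *Kdr* and the other marker genes were named after their values were seen. The members and lists were chosen with earlier results of these data known. Of the paired numbers, those of D6 and D6+GSKJ4 (correlations of gene deviations 0.833, 0.525 and 0.671) and of neighbouring untreated stages (0.174 to 0.408) all exceeded 0.1, whereas D4H8 and D5 with GSKJ4 each had 1 pair under it (0.089 and 0.0814). D4 and D6 had 0.0149, 0.018 and 0.105 in replicates 1 to 3, so that only replicate 3 exceeded it. Nothing in the labels says that equal numbers were grown together. Replicates whose counts differed only by sampling noise were looked for and none were found, the mean chi-square over genes being 6.94 to 117 in 21 within-group pairs. The crest and sensory marker list is not reported here.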

Additional observations from a re-analysis of the deposited data

How the results depend on the processing

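Only member results called in at least 1 setting were counted here. Over these 31 member results and 557 alternative values, 502 kept direction and side of the threshold, 28 lost the call, 27 gained one and 0 changed sign. Results called in no setting were left out, and signs did change among them. For *Lhx1* from D4 to D4H8, leaving out 1 library gave log2 fold changes from −0.26 to 0.82. Of the members called from D4 to D4H8 (2), upper-quartile scaling left 1, no filter on counts gave 4, 1 fit over all 21 libraries gave 0, and leaving out 1 library gave 1 to 3. From D4H8 to D5 (4) a minimum of 10 counts in every library left 2, since low members then go untested, and leaving out 1 library gave 3 to 5. Leaving out 1 library gave 5 to 6 from D5 to D6 (6) and 7 to 8 from D4 to D6 (8). The fit over all 21 libraries gave 3 from D4H8 to D5 (without *Foxp4*), 6 from D5 to D6 and 6 from D4 to D6 (without *Foxp2* and *Etv1*), and upper-quartile scaling gave 7 from D4 to D6 (without *Foxp2*). The GSKJ4 count at D4H8 (0) was 1 with the replicate block and 0 to 1 with a library left out (1 without D4H8+GSKJ4 replicate 2). At D5 (0) it was 1 by DESeq2 and 1 in the fit over all 21 libraries. At D6 (0) it was 2 with the replicate block. The GSKJ4 effect at D5 minus that at D4H8 (0) gave 1 by DESeq2, 1 with no filter, 1 with the replicate block and 0 to 1 with a library left out (1 without D4H8+GSKJ4 replicate 1). The replicate block gave 3, 5, 6 and 9 members over the stage comparisons from D4 to D4H8, D4H8 to D5, D5 to D6 and D4 to D6. The cause of these changes was not tested. Upper-quartile scaling moved the median log2 fold change of all genes from −0.04 to −0.19 from D4 to D6. Depth limits *Aldh1a2* and *Runx1* before D5, and *Etv4* up to and at D5, where it had 20 to 90 reads per library. *Etv1* and *Foxp2* stayed under 1 FPKM throughout, with their fewest reads, 0 and 12, in D5+GSKJ4 replicate 2.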
